A study of Bos taurus with 5 samples.

Results

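Mitochondria are remodelled by fusion and fission and are cleared by mitophagy, and this report describes the messenger RNAs of 9 genes that run these steps in early cattle embryos (Bos taurus). The genes were chosen by symbol, as MFN1, MFN2, OPA1, DNM1L, FIS1, MFF, PINK1, MUL1 and BNIP3, and not by their measured values. Earlier results of these data were known when they were chosen. Each symbol matched exactly 1 row among the 27607 genes of the deposited table, and all 9 genes passed the filter on low values described below.

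The study sequenced RNA from embryos developed in vitro and sired by bulls classed as low-performing or high-performing, to learn how the class of the sire goes with the transcriptome of the embryo. There were 2 pools from low-performing sires and 3 pools from high-performing sires, each of 100 embryos. By their labels the embryos had reached the 4-cell stage, and the series description also names an earlier cleavage stage. The labels name an addition of recombinant Wnt5A for all 5 pools alike, with no dose, so it sets no group apart; whether each pool received it is not clear from the labels. How performance was defined, how many bulls stood behind a pool and whether the pools of a group came from separate fertilisations are not given, so p-values reflect only how these pools vary, and that variation may be technical.

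The mitochondrial network of a cell is kept in balance by large GTPases. The mitofusins MFN1 and MFN2 sit in the outer membrane and join the outer membranes of neighbouring mitochondria, and OPA1 fuses the inner membranes and shapes the cristae. DNM1L, also called DRP1, is drawn from the cytosol to the outer membrane, where it constricts and cuts the organelle; MFF is its main receptor there, and FIS1 is a small tail-anchored protein linked to fission and to mitophagy. PINK1 is a kinase that builds up on damaged mitochondria and marks them for removal, MUL1 is a ubiquitin ligase of the outer membrane, and BNIP3 is a receptor that ties mitochondria to the autophagosome. Early embryos inherit their mitochondria from the egg and remove those of the sperm, a step that in the mouse involves MUL1, and mouse oocytes need both DNM1L and MFN1 for normal growth.

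Levels are given as RPKM, reads per kilobase of gene, scaled to the reads counted in genes of each library, as computed by the authors. Between 67248924 and 113100809 reads were counted in genes per pool, and the 9 genes held between 746 reads, for FIS1 in high-performing pool 2, and 36052 reads, for OPA1 in high-performing pool 1. A gene of 1 kb with 3 reads would have at most 0.0446 RPKM in these libraries, far under every value of the 9 genes, and this floor covers counting error only. All 10 oocyte and early embryo markers checked passed the filter, and their summed level was 18381 and 24509 RPKM in the low-performing pools, against 10825 to 15367 RPKM in the high-performing pools. Of 10 cumulus and granulosa markers 5 passed, with sums of 186 to 188 RPKM in low-performing pools and 189 to 207 RPKM in high-performing pools, while AMH and FSHR stayed under the filter. None of 6 sperm markers passed, with PRM2 and TNP1 at 0 in every pool, and 2 of 6 blood markers passed, CD3E and CSF1R, with HBB at 0 in every pool. The sums of the first 2 marker lists did not overlap between the sire groups, but each was mostly 1 gene. BTG4 gave 11820 and 16940 RPKM in low-performing pools 1 and 2, and STAR, which overlapped, gave 159 and 158 RPKM. Gene by gene, 8 of the 10 oocyte and early embryo markers lay higher in both low-performing pools, while ZP2 and NLRP5 overlapped. Of the 5 cumulus and granulosa markers that passed, only HAS2 separated, lower in low-performing pools. The part of these markers in the results was not tested. In pooled embryos, fewer cells or embryos carrying a transcript and less of it per cell cannot be told apart.

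**Figure D1:**
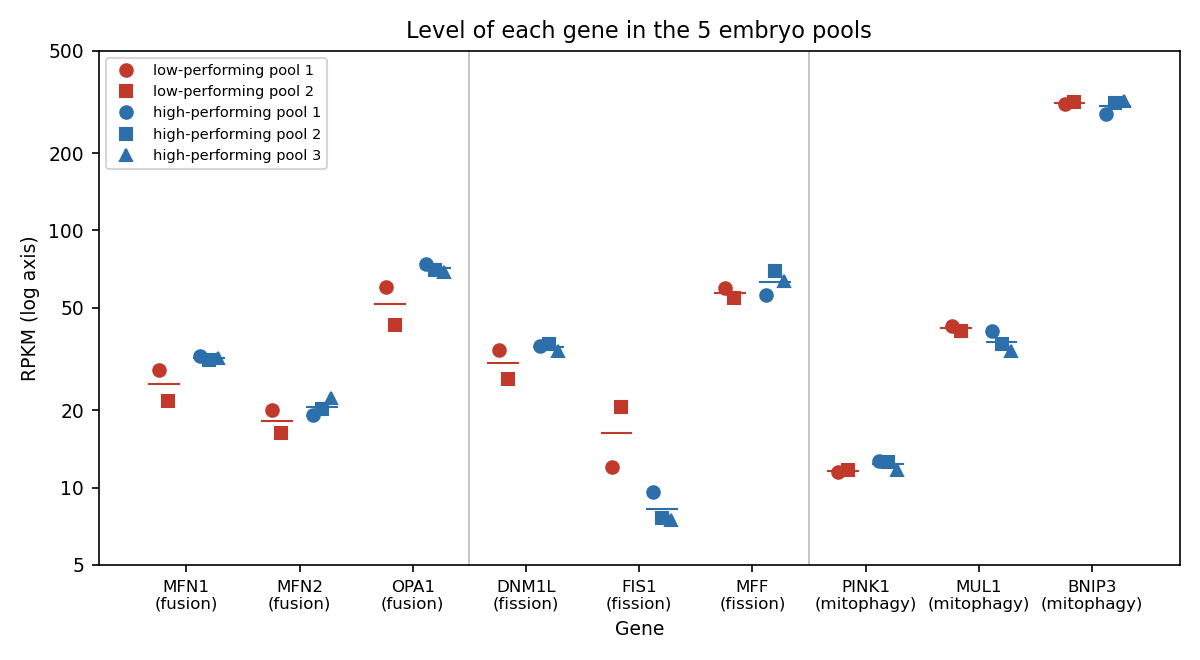
RPKM of the 9 genes (log axis) in each of the 2 low-performing pools (red, left of each gene) and the 3 high-performing pools (blue, right), with a short line at each group mean. BNIP3 lies between 285 and 317 RPKM in all 5 pools, whereas FIS1 separates, at 12.1 and 20.6 RPKM in low-performing pools and 7.45 to 9.63 RPKM in high-performing pools.

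Per length of gene, BNIP3 was by far the most abundant of the 9 transcripts, at a mean of 308 ± 13.4 RPKM over the 5 pools (SD, n = 5), above 98.5% of all genes tested. OPA1 followed at 63.3 ± 12.5 RPKM (SD, n = 5) and MFF at 60.7 ± 6.06 RPKM (SD, n = 5), and the ranges of these neighbours overlapped. MUL1 came next at 38.8 ± 3.52 RPKM (SD, n = 5), then DNM1L at 33.3 ± 3.86 RPKM (SD, n = 5), MFN1 at 29.2 ± 4.4 RPKM (SD, n = 5) and MFN2 at 19.6 ± 2.17 RPKM (SD, n = 5). The ranges of each pair of neighbours from MUL1 to MFN2 overlapped, although DNM1L stood above MFN1 and MFN1 above MFN2 within each of the 5 pools. PINK1 at 12.02 ± 0.53 RPKM (SD, n = 5) and FIS1 at 11.5 ± 5.43 RPKM (SD, n = 5) closed the order, with PINK1 the higher in 3 of 5 pools. The mean of BNIP3 was 26.9 times that of FIS1. The counted model of BNIP3 is the shortest, at 570 bases against 1458 to 4425 bases for the others, and a level per length depends on which parts of the transcript the model holds.

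The difference between the sire groups was small for most of these genes and not uniform in direction. FIS1 was about double in the low-performing pools, and OPA1 and MFN1 were lower in both of them. BNIP3 and PINK1 were close to level on the RPKM as deposited. On the log2(RPKM + 1) scale, with a positive value where the low-performing pools are higher, fold changes of the 9 genes ran between -0.48 and 0.87 around a median of -0.14. Over all 12448 genes tested the median was -0.03. In limma with Benjamini-Hochberg adjustment over all of these genes, 0 of the 9 passed an adjusted p of 0.05, as did 0% of all genes tested, where the smallest adjusted p was 0.0829. The count was also 0 with limma voom on recovered whole reads. At an unadjusted limma p of 0.05, 1 of the 9 genes stood higher and 1 lower, FIS1 and OPA1, beside 19% of all genes tested that stood higher and 15.9% that stood lower, 34.9% in all. Both low-performing pools lay above every high-performing pool for 2 of the 9, FIS1 and MUL1, where 29.4% of all genes tested did so, and below every one for 3 of the 9, OPA1, MFN1 and PINK1, where 29.3% did so. PINK1 left that group with quantile normalization, a trimmed-mean factor or a length trend removed; DNM1L took its place under the first 2 of these and BNIP3 under the last. In either direction that makes 5 of 9, where 58.7% of all genes tested did not overlap. These counts are near the background of the whole table.

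**Figure D2:**
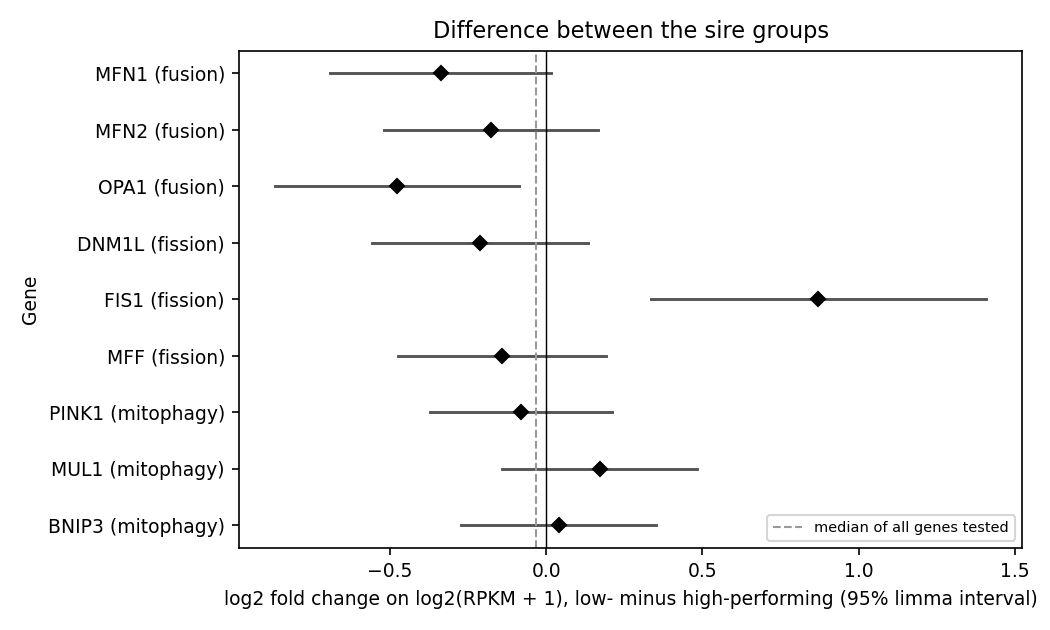
Log2 fold change of each gene on the log2(RPKM + 1) scale, low-performing minus high-performing, with the 95% interval from limma (2 low-performing and 3 high-performing pools); the dashed line is the median of all 12448 genes tested, at -0.03. The intervals of FIS1 (0.33 to 1.41) and OPA1 (-0.87 to -0.09) leave out 0, and the other 7 include it. OPA1 loses its unadjusted p under 0.05 with a trend over gene length removed or without any 1 high-performing pool. With that trend removed MFN2, PINK1 and BNIP3 take the other sign, BNIP3 with an unadjusted limma p of 0.0269.

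Among the fusion genes, MFN1 (ENSBTAG00000010485; chromosome 1, positions 87721169 to 87765315, minus strand, 18 exon blocks in build ARS-UCD1.2) had 28.7 and 21.7 RPKM in low-performing pools 1 and 2, against 32.5, 31.3 and 31.8 RPKM in high-performing pools 1, 2 and 3. The 3 high-performing pools were tightly grouped, and both low-performing pools fell outside their range. The group means were 25.2 ± 4.93 RPKM (SD, n = 2) in low-performing pools and 31.8 ± 0.60 RPKM (SD, n = 3) in high-performing pools. This gave a log2 fold change of -0.34 ± 0.15 (SE), with an adjusted limma p of 0.155. Leaving out low-performing pool 2 made it -0.14, leaving out low-performing pool 1 made it -0.53, and removing a trend over gene length made it -0.16.

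MFN2, the other mitofusin (ENSBTAG00000005314; chromosome 16, positions 41684079 to 41711310, minus strand, 20 exon blocks), is counted apart from MFN1, although RefSeq lists its name as a synonym of MFN1. It had 20.05 and 16.3 RPKM in low-performing pools 1 and 2, against 19.2, 20.3 and 22.3 RPKM in high-performing pools 1, 2 and 3. Low-performing pool 1 lay within the high-performing range and pool 2 below it, so the groups overlapped. The log2 fold change was -0.18 ± 0.15 (SE), with a 95% interval of -0.52 to 0.17 and an adjusted limma p of 0.407, and it was 0.08 with a trend over gene length removed. Leaving out low-performing pool 2 made it -0.03, and leaving out low-performing pool 1 made it -0.32.

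OPA1, which acts on the inner membrane (ENSBTAG00000019514; chromosome 1, positions 73771857 to 73856448, minus strand), is the gene with the most exon blocks of the 9, at 31. It had 60.2 and 42.9 RPKM in low-performing pools 1 and 2, against 74.1, 70.3 and 69.0 RPKM in high-performing pools 1, 2 and 3. Both low-performing pools stood below all high-performing pools, and they differed from each other by 17.4 RPKM, over the 5.16 RPKM between the highest and lowest high-performing pools. The mean in low-performing pools was 51.5 ± 12.3 RPKM (SD, n = 2), or 72.5% of the 71.1 ± 2.69 RPKM in high-performing pools (SD, n = 3). This was the lowest fold change of the 9, at -0.48 ± 0.17 (SE), with an unadjusted p of 0.0234 and an adjusted p of 0.103 in limma. With a trend over gene length removed it was -0.23, with an unadjusted limma p of 0.110, and without low-performing pool 2 it was -0.24, with an unadjusted limma p of 0.0940. The unadjusted limma p also exceeded 0.05 without any 1 high-performing pool (0.0545 to 0.0668), where the fold change stayed between -0.50 and -0.45. With a replicate block the unadjusted limma p was 0.105. That block gave the same fold change as leaving out high-performing pool 3, so it is not a separate estimate.

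In the fission group, DNM1L (ENSBTAG00000011395; chromosome 5, positions 77144456 to 77205083, minus strand, 22 exon blocks) encodes the GTPase that cuts the organelle. Of its counted exonic bases, 73 (2.4%) overlap those of YARS2 on the opposite strand. The counting's strand setting is unknown here, so reads of the shared bases cannot be assigned. The level was 34.4 and 26.6 RPKM in low-performing pools 1 and 2, against 35.4, 36.1 and 34 RPKM in high-performing pools 1, 2 and 3. Low-performing pool 1 lay within the narrow high-performing range and pool 2 well under it. The log2 fold change was -0.21 ± 0.15 (SE), with a 95% interval of -0.56 to 0.13 and an adjusted limma p of 0.324; it was -0.03 without low-performing pool 2 and -0.06 with a trend over gene length removed.

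MFF, the membrane receptor of DNM1L (ENSBTAG00000021319; chromosome 2, positions 115486532 to 115514827, plus strand, 13 exon blocks), had 59.6 and 54.4 RPKM in low-performing pools 1 and 2, against 56.1, 69.4 and 63.8 RPKM in high-performing pools 1, 2 and 3. The high-performing pools spread over 13.3 RPKM, more than the 5.20 RPKM between the low-performing pools, and the groups overlapped. MFF thus had a log2 fold change of -0.14 ± 0.14 (SE), with a 95% interval of -0.47 to 0.19 and an adjusted limma p of 0.494. It was -0.08 without low-performing pool 2, -0.07 without high-performing pool 2 and -0.24 with a trend over gene length removed.

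FIS1 (ENSBTAG00000007900; chromosome 25, positions 35447764 to 35461476, plus strand, 6 exon blocks) showed the largest difference of the 9. It had 12.1 and 20.6 RPKM in low-performing pools 1 and 2, against 9.63, 7.61 and 7.45 RPKM in high-performing pools 1, 2 and 3. Every low-performing value exceeded every high-performing one, and the gap between the low-performing pools, 8.54 RPKM, was wider than the range of 2.18 RPKM among the high-performing pools. These levels rest on 1734 and 2812 reads in low-performing pools 1 and 2, and on 1588, 746 and 980 reads in high-performing pools 1, 2 and 3. The group mean in low-performing pools was 16.3 ± 6.04 RPKM (SD, n = 2), or 198% of the 8.23 ± 1.22 RPKM in high-performing pools (SD, n = 3).

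By its unadjusted limma p of 0.00617, FIS1 held rank 893 among the 12448 genes tested. Its adjusted limma p of 0.0829 was the smallest of all, but genes of better rank shared that value. The log2 fold change of FIS1 was 0.87 ± 0.23 (SE), above that of 94.8% of all genes tested. It was 0.51 without low-performing pool 2, 1.23 without low-performing pool 1 and 0.71 with a trend over gene length removed. In the authors' deposited table FIS1 was the only one of the 9 genes with a false discovery rate under 0.05. That table gives it a log2 fold change of 0.99, a p-value of 4.07e-05 and a false discovery rate of 0.00193. The same table puts 7.95% of its 27607 genes under a false discovery rate of 0.05. The next of the 9 in the authors' deposited table was OPA1, with a log2 fold change of -0.46 and a false discovery rate of 0.168.

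The mitophagy genes PINK1 and MUL1 lie on chromosome 2, with 109 kb between them. PINK1 (ENSBTAG00000006084; positions 131986298 to 132006686, minus strand, 8 exon blocks) had 11.5 and 11.7 RPKM in low-performing pools 1 and 2, against 12.6, 12.5 and 11.7 RPKM in high-performing pools 1, 2 and 3. The groups did not overlap, but only 0.06 RPKM separated the closest pools, and they overlapped with quantile normalization, a trimmed-mean factor or a length trend removed. The means were 11.6 ± 0.14 RPKM (SD, n = 2) in low-performing pools and 12.3 ± 0.49 RPKM (SD, n = 3) in high-performing pools. PINK1 had a log2 fold change of -0.08 ± 0.12 (SE), with a 95% interval of -0.37 to 0.21 and an adjusted limma p of 0.660, and it was 0.06 with a trend over gene length removed.

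MUL1 (ENSBTAG00000020850; chromosome 2, positions 132115901 to 132123552, plus strand), a ligase that tags mitofusins among other targets, has the fewest exon blocks of the 9, at 4. It had 42.5 and 40.8 RPKM in low-performing pools 1 and 2, against 40.6, 36.1 and 34.1 RPKM in high-performing pools 1, 2 and 3. The groups were separated by only 0.20 RPKM, between low-performing pool 2 and high-performing pool 1. For MUL1 the log2 fold change was 0.17 ± 0.13 (SE), with a 95% interval of -0.14 to 0.48 and an adjusted limma p of 0.374.

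BNIP3, the abundant receptor (ENSBTAG00000017804; chromosome 26, positions 51221616 to 51226873, minus strand, 6 exon blocks), had 310 and 316 RPKM in low-performing pools 1 and 2, against 285, 313 and 317 RPKM in high-performing pools 1, 2 and 3. Both low-performing pools lay inside the high-performing range, which held for none of the other 8 genes. The means were 313 ± 4.10 RPKM (SD, n = 2) in low-performing pools and 305 ± 17.5 RPKM (SD, n = 3) in high-performing pools. BNIP3 had a log2 fold change of 0.04 ± 0.13 (SE), with a 95% interval of -0.27 to 0.35 and an adjusted limma p of 0.843. Its sign depended on the scaling, at -0.22 with quantile normalization and -0.49 with a trend over gene length removed. With that trend removed its unadjusted limma p was 0.0269 and its adjusted limma p 0.127, and the groups did not overlap.

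The low-performing pools were not alike. Low-performing pool 1 lay inside the high-performing range for 4 of the 9 genes and low-performing pool 2 for 1 of the 9. Pool 2 was the lowest of all 5 pools for 5 genes and the highest for 1. Relative to the high-performing mean, OPA1 was 0.85-fold in low-performing pool 1 and 0.60-fold in pool 2, and MFN1 was 0.90-fold in pool 1 and 0.68-fold in pool 2. FIS1 was 1.46-fold in low-performing pool 1 and 2.5-fold in pool 2. For PINK1, MUL1 and BNIP3, by contrast, the pools were close to each other, at 0.93-fold and 0.95-fold for PINK1, 1.15-fold and 1.10-fold for MUL1, and 1.02-fold and 1.04-fold for BNIP3 in pools 1 and 2.

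When low-performing pool 2 was set alone against the 3 high-performing pools, which assumes that a lone pool varies like the others, 4 of the 9 genes passed an adjusted limma p of 0.05, in a fit where 43.6% of all genes passed. MFN1 fell by 0.53 on the log2 scale, OPA1 by 0.72 and DNM1L by 0.39, while FIS1 rose by 1.23, with adjusted limma p of 0.0141, 0.00684, 0.0377 and 0.00484 in that order. When low-performing pool 1 was set alone against them, no gene in the whole table passed, and the median log2 fold change of the 9 genes was -0.03, against -0.21 for pool 2 alone. The calls among the 9 genes with 1 pool left out thus came from low-performing pool 2. Over all genes tested the median was 0.01 for pool 1 alone and -0.08 for pool 2 alone. Part of the shift in the median was thus shared by the whole table.

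**Figure D3:**
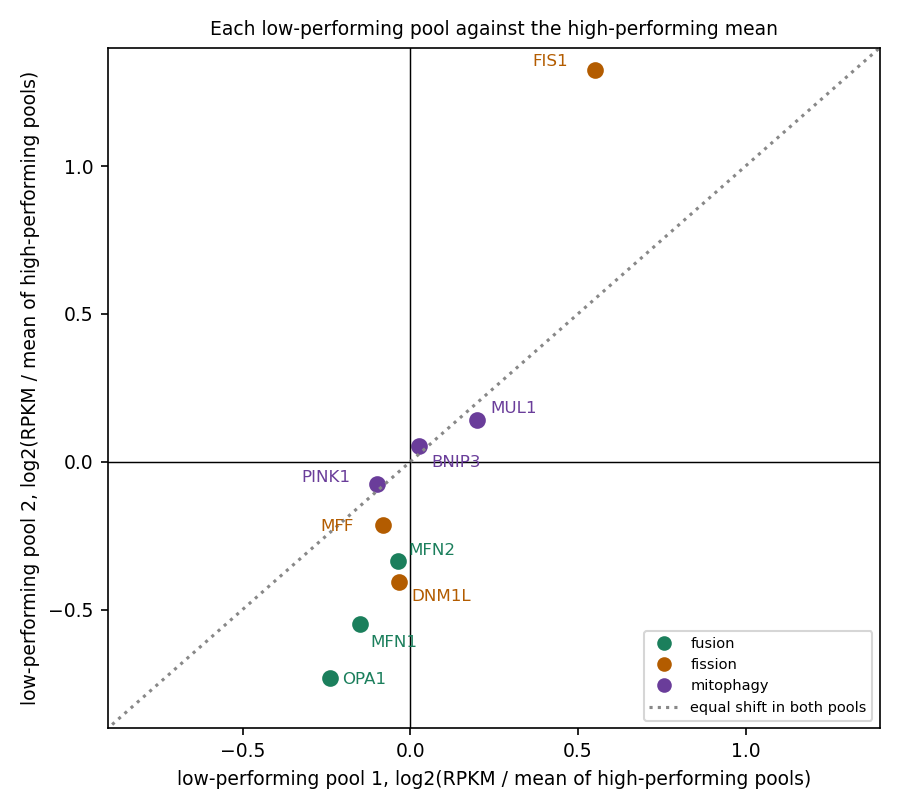
Log2 ratio of RPKM to the mean of the 3 high-performing pools, in low-performing pool 1 (horizontal) and low-performing pool 2 (vertical), with 1 point per gene coloured by role and a dotted line where both pools shift equally. The fusion genes, DNM1L and MFF lie below the line on the negative side, and FIS1 lies above it at 1.46-fold and 2.5-fold. PINK1, MUL1 and BNIP3 lie near the line.

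A ratio of 2 genes within a pool does not change when a pool is multiplied by a single factor, although quantile normalization or removal of a trend over gene length would change it, and 9 such ratios were compared on the RPKM as deposited. With 10 ways to split 5 pools into 2 and 3, the exact two-sided permutation test cannot give a p under 0.1, or under 0.18 after adjustment over the 9 ratios, so none could pass 0.05. FIS1 transcripts per DNM1L transcript, by RPKM, stood at 0.351 and 0.775 in low-performing pools 1 and 2, against 0.272, 0.210 and 0.219 in high-performing pools 1, 2 and 3. The low-performing pools were higher throughout, by 1.17 on the log2 scale, and FIS1 over MFF showed the same separation by 1.09 (exact permutation p = 0.1 for each, adjusted p = 0.18).

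DNM1L over OPA1, a ratio of fission to inner-membrane fusion transcripts, was 0.571 and 0.619 in low-performing pools 1 and 2, against 0.478, 0.514 and 0.493 in high-performing pools 1, 2 and 3. These values did not overlap although DNM1L itself did, and the log2 difference was 0.27 (exact permutation p = 0.1, adjusted p = 0.18). MFN1 over OPA1 was also higher in both low-performing pools, at 0.477 and 0.507 against 0.438 to 0.461 in high-performing pools, a log2 difference of 0.14 (exact permutation p = 0.1, adjusted p = 0.18). The ratio of the mitofusins, MFN1 over MFN2, overlapped, at 1.43 and 1.33 in low-performing pools and 1.43 to 1.69 in high-performing pools (exact permutation p = 0.3, adjusted p = 0.386).

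PINK1 over MUL1 was lower in both low-performing pools, at 0.270 and 0.286 against 0.312, 0.347 and 0.344 in high-performing pools 1, 2 and 3, a log2 difference of -0.26 (exact permutation p = 0.1, adjusted p = 0.18). BNIP3 over PINK1 was 27.0 and 27.1 in low-performing pools, against 22.5, 24.9 and 27.0 in high-performing pools 1, 2 and 3 (exact permutation p = 0.2, adjusted p = 0.3). BNIP3 over MUL1 and DNM1L over MFF overlapped between the groups (exact permutation p = 0.5 and 0.7, adjusted p = 0.562 and 0.7).

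**Figure D4:**
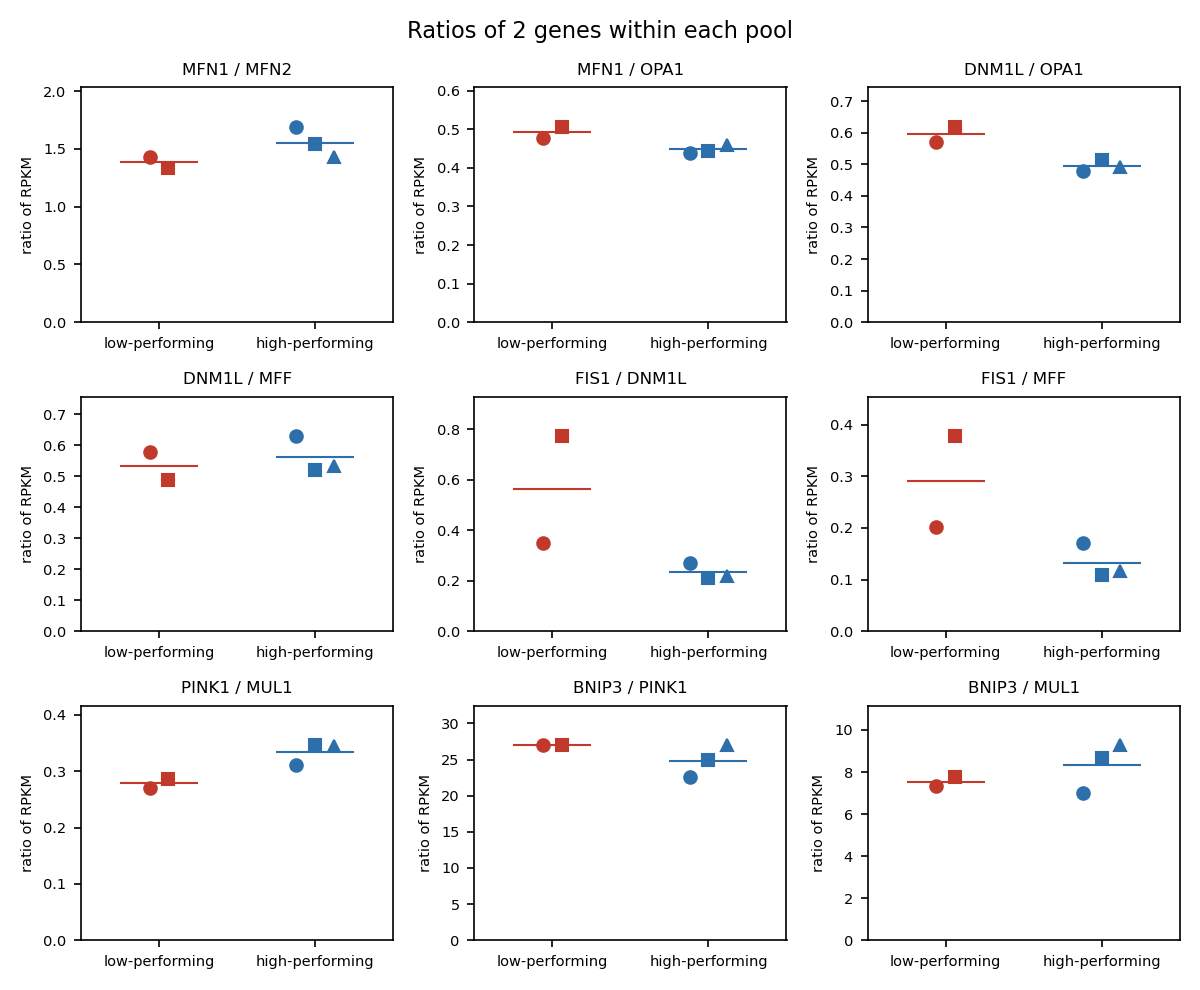
Ratio of the RPKM of 2 genes within each pool (vertical axes start at 0), for 9 pairs, in the 2 low-performing pools (red, left) and the 3 high-performing pools (blue, right), with circle, square and triangle for pools 1, 2 and 3 and a line at each group mean. FIS1 over DNM1L separates the groups, at 0.351 and 0.775 in low-performing pools and 0.210 to 0.272 in high-performing pools, while MFN1 over MFN2 overlaps.

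Other genes of the same processes, taken from lists chosen by function, showed no gene past an adjusted limma p of 0.05 either. Over all 12448 genes tested, 5814 lay above 0 and 6634 below. Of 14 fusion partners and factors of OPA1 processing tested, 8 lay above 0 and 6 below, around a median of 0.16 (log2). ROMO1, a small membrane protein linked to OPA1 and reactive oxygen species, stood highest, at 69.5 and 177 RPKM in low-performing pools 1 and 2 against 30.4 to 42.6 RPKM in high-performing pools. Its fold change was 1.59 ± 0.36 (SE) in log2 units, with the shared adjusted limma p of 0.0829 and rank 267 by unadjusted p. The prohibitins, which form one ring complex in the inner membrane, stood on opposite sides of 0. Prohibitin 1, named PHB in the table, had a log2 fold change of 0.80 ± 0.22 (SE), with 105 and 149 RPKM in low-performing pools against 60.0 to 88.4 RPKM in high-performing pools. PHB2 had one of -0.34 ± 0.14 (SE), with 56.2 and 48.1 RPKM in low-performing pools against 59.9 to 69.7 RPKM in high-performing pools. MIGA1, the next lowest, stood at -0.14 ± 0.13 (SE), and OMA1, a protease that cleaves OPA1 under stress, at -0.09 ± 0.14 (SE).

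Of 15 fission adaptors and DNM1L regulators listed, INF2 was not matched, and of the 14 tested 5 lay above 0 and 9 below, around a median of -0.12 (log2). SENP3, which removes SUMO from proteins, was lowest at -0.54 ± 0.22 (SE), with 56.5 and 32.4 RPKM in low-performing pools 1 and 2 against 59.6 to 66.5 RPKM in high-performing pools. MTFR1, a regulator of fission, followed at -0.45 ± 0.21 (SE), with 199 and 124 RPKM in low-performing pools 1 and 2 against 207 to 221 RPKM in high-performing pools. The highest of the list were PGAM5, a mitochondrial phosphatase, at 0.20 ± 0.13 (SE) and MTFP1 at 0.07 ± 0.19 (SE). MIEF1, another receptor for DNM1L, stood at -0.02 ± 0.17 (SE).

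Of 22 mitophagy receptors, adaptors and regulators, 20 passed the filter, while NLRX1 and ATAD3A did not. Of those that passed, 7 lay above 0 and 13 below, around a median of -0.11 (log2). PHB2 belongs to this list and to that of the fusion partners, and is counted in both. TOMM7, a small subunit of the outer-membrane import complex that holds PINK1 in place, stood highest at 1.57 ± 0.37 (SE), with 363 and 835 RPKM in low-performing pools 1 and 2 against 156 to 258 RPKM in high-performing pools. PPTC7 and FBXL4, which both restrain BNIP3-type mitophagy, were the lowest. PPTC7 stood at -0.76 ± 0.20 (SE), with 13.1 and 7.84 RPKM in low-performing pools 1 and 2 against 16.7 to 19.0 RPKM in high-performing pools. FBXL4 stood at -0.52 ± 0.18 (SE), with 99.3 and 67.8 RPKM in low-performing pools 1 and 2 against 113 to 122 RPKM in high-performing pools. BNIP3L, the close relative of BNIP3, stood at 0.09 ± 0.12 (SE), and the receptor FUNDC1 at 0.23 ± 0.20 (SE).

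The 6 genes tested of mitochondrial transport, which ties mitochondria to motors, centred on a median of -0.33 (log2), and 5 lay below 0. RHOT1, the outer-membrane anchor also called Miro1, was lowest at -0.50 ± 0.18 (SE), with 21.9 and 14.7 RPKM in low-performing pools 1 and 2 against 24.7 to 27.2 RPKM in high-performing pools. TRAK1, the adaptor to the motors, stood at -0.49 ± 0.18 (SE). Their relatives RHOT2 and TRAK2, the highest of the list, stood at 0.04 ± 0.14 (SE) and -0.12 ± 0.15 (SE). ROMO1 and TOMM7, with the highest fold changes in these lists, are also among the shortest models, at 402 and 448 bases. Among the lowest, PPTC7, SENP3, FBXL4, RHOT1 and TRAK1 have models of 4665, 2240, 2593, 3737 and 6454 bases. The part of length in the values of these genes was not tested.

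**Figure D5:**
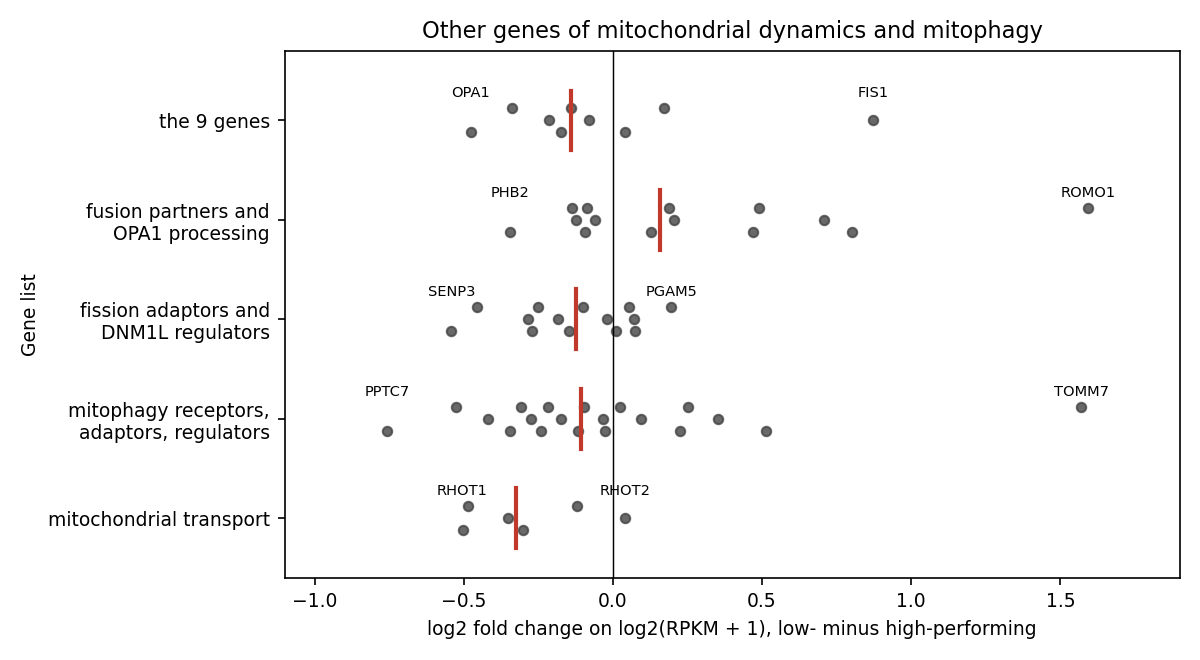
Log2 fold change on the log2(RPKM + 1) scale, low-performing minus high-performing, of each tested gene (points, spread vertically for legibility) in the 9 genes and in 4 further lists, with a red bar at each list's median. The medians are -0.14, 0.16, -0.12, -0.11 and -0.33 from top to bottom, and the lowest and highest gene of each list is named.

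To place the profiles of the 9 genes among all others, each gene's log2(RPKM + 1) was centred on its own mean and compared over the 5 pools by the root mean square difference, where a small value means a like profile. The nearest named genes to FIS1 were ELOB at 0.0235 and CD63 at 0.0278, where the median over all genes was 0.543. For the other members that median lay between 0.184, for PINK1, and 0.27, for OPA1. OPA1 was nearest to DOCK5 at 0.0236 and MPDZ at 0.0255, and MFN1 to ORC5 at 0.00772 and KANK2 at 0.0138. MFN2 was nearest to CBS and FYN, DNM1L to SSRP1 and NECAP1, and MFF to EAF1 and LMNA. PINK1 was nearest to TFRC and FAR1, MUL1 to IL18RAP and CERS2, and BNIP3 to DISP1 and BAG3, and the 12 differences of these last 6 genes lay between 0.00491 and 0.0197. With only 5 pools and 12448 genes, a close match to some profile is easily found.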

How the data were processed

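The authors deposited 1 table with RPKM per library for 27607 genes, 19766 with a symbol, gene lengths, mean log2 CPM and their own test, with log2 fold changes, a likelihood-ratio statistic (score), p-values and a false discovery rate. The tools named in the submitters' processing notes are edgeR, featureCounts and FastQC, with build ARS-UCD1.2; aligner, versions and strand setting are unknown here. The authors' fold change is positive where low-performing pools are higher. Per the labels' protocols, libraries came from a stranded mRNA kit. RPKM times length in kilobases summed to 1000000 in every library, and all values came out as whole reads (relative tolerance 1e-06). No per-sample column was left unmapped.

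The 12448 genes that reached 1 RPKM in 2 or more libraries entered a limma-trend fit (limma 3.58.1 under R 4.3.3) of log2(RPKM + 1), where the pseudocount understates changes of low genes. The fit was checked on simulated reads with equal spread in both groups. That check does not cover the wide gap between the low-performing pools. The members, lists and tests were chosen with earlier results of these data known. Named genes were the 9 members, the 2 highest and 2 lowest of each list, and BNIP3L, FUNDC1, MIEF1 and OMA1; 1 gene the rule names is not reported here. Positions are those of the table, and overlapping exons were searched in it. Alternatives were pseudocounts, filters, scalings, a loess trend over gene length removed (span 0.5), limma without trend or with library weights, voom on recovered reads, a replicate block, a threshold of 0.1 and each library left out. Figures used Python 3.11.15 and matplotlib 3.10.9.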

Additional observations from a re-analysis of the deposited data

How the results depend on the processing

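Across the alternatives FIS1 and MUL1 stayed above 0, and OPA1, MFN1, DNM1L and MFF below 0. The sign turned for BNIP3 with quantile normalization (-0.22), with the length trend removed (-0.49) and without high-performing pool 1 (-0.0076, with a highest value of 0.070 when another pool was left out), and with the length trend removed also for MFN2 (0.077) and PINK1 (0.063). The count of genes past the threshold was 0 in the fit of all 5 pools and 0 under the pseudocounts, filters and scalings, without trend, with library weights and with limma voom; at an unadjusted limma p of 0.05 it was 4348. It was 2660 at an adjusted p of 0.1, FIS1 among them, and ranged from 0 to 5372 with 1 pool left out, the highest without low-performing pool 1. The number of the 9 genes whose groups did not overlap ranged from 5 to 8 with 1 pool left out. The highest count, 2 higher and 6 lower, was again without low-performing pool 1. There 36.8% of all genes tested lay higher without overlap and 48.4% lower. In the other fits with 1 pool left out, 31.7% to 36.3% of all genes lay higher and 32.3% to 35.3% lower. Under the scalings the count stayed at 5, where PINK1 gave way to DNM1L (quantile, trimmed-mean) or BNIP3 (length trend). Under these scalings 26.3% to 31.4% of all genes lay higher and 21.5% to 33.3% lower. With the replicate block 833 genes passed and none of the 9 did. The labels do not pair the pools, and for the 9 genes this block gave the same fold changes as leaving out high-performing pool 3. Deviations of same-numbered pools from their group mean correlated at -0.485 and -0.259 across genes. The 2 low-performing deviations are exact opposites, so the crossed pairs gave 0.485 and 0.259, and these values cannot decide on a pairing. The fewest reads behind a value of the 9 genes were 746; depth and number of pools were not compared as limits.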
